A study of Mus musculus with 12 samples.

Results

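Helios and Eos, the products of Ikzf2 and Ikzf4, are zinc finger transcription factors of the Ikaros family. All probe sets whose single platform symbol was Ikzf2 or Ikzf4 were taken, which gave 2 of the 9607 genes with such a symbol and 3 of 22575 probe sets. Ikzf2 had 2 probe sets, here called A (1437542_at) and B (1456956_at) in order of mean signal, and Ikzf4 had 1 (1457342_at). Another 6 probe sets stood for the remaining family members Ikzf1, Ikzf3 and Ikzf5. All 3 probe sets of Ikzf2 and Ikzf4 gave signals above their array's median on 12 of 12 arrays, and all 3 entered the test.

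Proteins of the Ikaros family bind DNA through zinc fingers near the start of the protein and pair with one another through a second set of fingers at its end. They are best known as lineage regulators of lymphocytes that recruit chromatin remodelling and deacetylase complexes to their targets. In the mouse thymus Helios is known from the T cell lineage and from many regulatory T cells, and Eos is known as a partner of Foxp3 in regulatory T cells.

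RNA was measured in sorted thymocytes of untreated mice on the B10 background, 6 to 8 weeks old, with 1 Affymetrix MOE430B array per sample. The 4 groups had 3 biological replicates each and were double-positive and CD4 single-positive thymocytes from TCR mice, which carried a transgenic T cell receptor, and from TCR:HEL mice, which carried the receptor together with HEL. HEL, which the labels do not spell out, is in such mice hen egg lysozyme, the antigen that the transgenic receptor recognises. The labels describe TCR single-positive cells as positively selected, TCR:HEL single-positive cells as negatively selected, and double-positive cells as the stage before selection. The sample titles give the receptor transgene to all 12 samples, while the series' design text names one kind of mouse only as B10, and the titles were followed here. The labels do not give the promoter behind either transgene or say whether animals were pooled.

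The arrays' median signals lay between 62.9 and 81.3. Cd8a, which double-positive cells express and CD4 single-positive cells lose, was lower in single-positive than in double-positive cells of both kinds of mouse, with log2 differences of -3.47 ± 0.27 (SE) in TCR and -2.36 ± 0.27 in TCR:HEL. Cd4 and Foxp3 could not be read, because the array held no probe set with either as its single symbol. Of 9 listed markers of CD4 single-positive thymocytes, Cd4 among them, 0 were on the array. The Gapdh 5′ to 3′ signal ratio, a sign of RNA length, was lowest on 3 arrays, at 0.0379 for TCR single-positive replicate 1, 0.0856 for TCR:HEL single-positive replicate 1 and 0.107 for TCR double-positive replicate 1, against 0.195 to 0.453 on the others. The arrays were hybridised in 3 periods that largely coincided with stage, so results are also given without those 3 arrays or within periods where they bear on a call. In all that follows, differences are between group means of log2(signal + 16), each with its SE, and a probe set was called at a limma p-value under 0.05 after Benjamini-Hochberg adjustment over 13703 probe sets.

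The antigen comparison in single-positive cells showed Ikzf2 higher in TCR:HEL than in TCR at both of its probe sets. Signals of probe set A were 887, 1327 and 1291 in the TCR arrays and 7052, 5335 and 6204 in the TCR:HEL arrays, with means of 1168 ± 244 (SD, n = 3) and 6197 ± 858. Signals of probe set B were 143, 189 and 640 in TCR and 2881, 3293 and 6238 in TCR:HEL, with means of 324 ± 275 and 4137 ± 1831. Every TCR:HEL array stood above every TCR array at both probe sets.

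The difference was 2.40 ± 0.26 at probe set A (5.30-fold, 95% confidence interval 1.86 to 2.95 on the log2 scale, limma adjusted p = 0.000565). It was 3.82 ± 0.51 at probe set B (14.1-fold, 2.73 to 4.91, limma adjusted p = 0.00325). By p the first of these was number 2 and the second number 8 of 13703 probe sets. Of all probe sets tested, 0.146% were called higher in this comparison, that is 20 of 13703, and the median difference over all of them was 0.01. With the replicate number as a block, which the correlation check allows for these groups, both remained called (limma adjusted p = 0.000884 for each), while the count of probe sets called in either direction went from 30 to 47.

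The difference at probe set A was 2.97 between the pair of arrays in hybridisation period 1, both among the 3 of low Gapdh ratio. It was 2.14 between 2 TCR:HEL arrays and 1 TCR array in period 3. At probe set B these values were 4.19 and 2.79. Without the 3 arrays of low Gapdh ratio the differences were 2.12 (limma adjusted p = 0.0462) and 3.63 (limma adjusted p = 0.0726), so that probe set B was then no longer called.

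In double-positive cells Ikzf2 gave no call between the 2 kinds of mouse. Probe set A read 2266, 2249 and 2040 in TCR and 3307, 2367 and 1988 in TCR:HEL. Probe set B read 369, 197 and 473 in TCR and 751, 274 and 515 in TCR:HEL. The groups overlapped at both probe sets. The differences were 0.19 ± 0.26 with a 95% interval of -0.36 to 0.74 and 0.52 ± 0.51 with an interval of -0.57 to 1.60. The upper end of each interval lies below the lower end of that probe set's interval in single-positive cells. The percentage of all probe sets called in this comparison was 0 with limma, with 339 at an unadjusted p under 0.05.

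**Figure D1:**
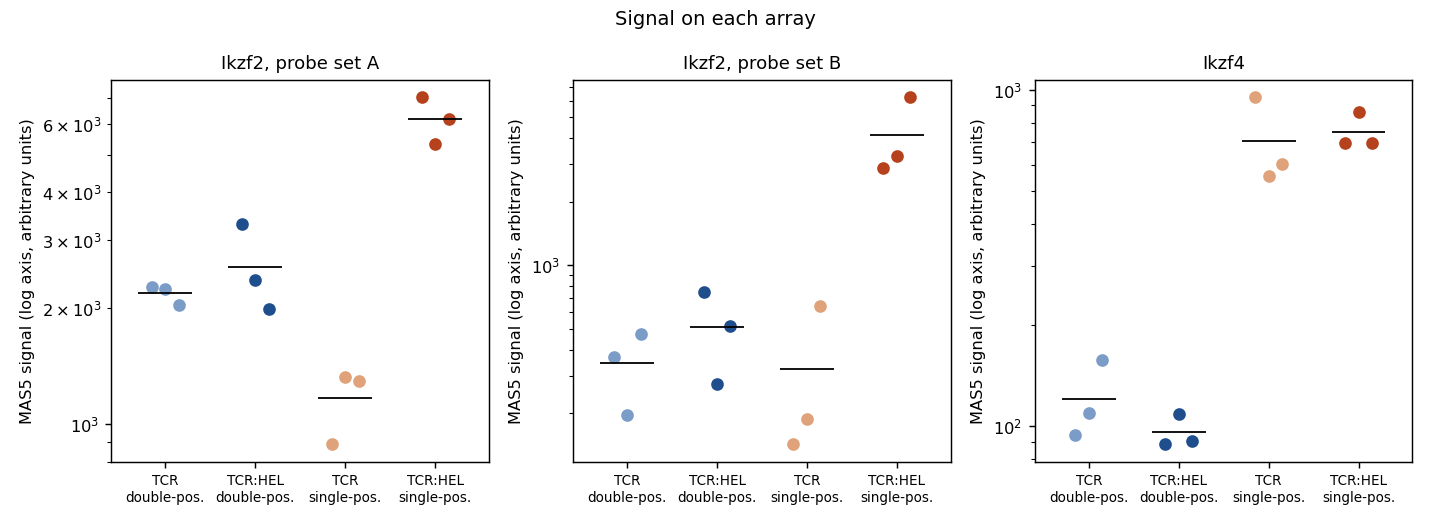
Signal of the probe sets of Ikzf2 and Ikzf4 on each of the 12 arrays, in arbitrary units on a log axis, with 1 point per array and a bar at the mean of each group of 3. Ikzf2 was highest on the 3 TCR:HEL single-positive arrays at both probe sets, and Ikzf4 was higher on all 6 single-positive arrays than on all 6 double-positive arrays.

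Between stages Ikzf2 was called higher in single-positive cells of TCR:HEL mice and was not called in TCR mice. In TCR:HEL mice, single-positive cells had higher signals than double-positive cells, with the lowest single-positive array at 5335 and the highest double-positive array at 3307 for probe set A, and at 2881 and 751 for probe set B. The difference was 1.30 ± 0.26 at probe set A (2.46-fold, 0.75 to 1.85, limma adjusted p = 0.0142) and 3.00 ± 0.51 at probe set B (7.98-fold, 1.91 to 4.08, limma adjusted p = 0.00492). Of all probe sets, 0.876% were called higher and 1.10% lower in this comparison. Within hybridisation period 3, which held 2 TCR:HEL single-positive arrays and 1 double-positive array, the differences were 1.53 and 3.10.

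The call at probe set A was lost when any of 4 TCR:HEL arrays was left out, namely single-positive replicate 1 (1.20, limma adjusted p = 0.0713), single-positive replicate 3 (1.29, 0.0597), double-positive replicate 2 (1.26, 0.0860) or double-positive replicate 3 (1.13, 0.0743), and without the 3 arrays of low Gapdh ratio (1.20, 0.0797). The call at probe set B was kept under all 25 alternatives.

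In TCR mice, probe set A was lower on every single-positive array, at no more than 1327, than on every double-positive array, at no less than 2040. Its difference was -0.92 ± 0.26 with a 95% interval of -1.46 to -0.37 and did not pass the threshold (limma adjusted p = 0.0696). Of all probe sets, 1.12% were called higher and 2.42% lower in this comparison. The difference at probe set B was -0.30 ± 0.51 (limma adjusted p = 0.867), and its groups overlapped. Without TCR single-positive replicate 1 it was 0.10, and without the 3 arrays of low Gapdh ratio 0.18.

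The interaction, the antigen difference in single-positive cells minus that in double-positive cells, was 2.21 ± 0.36 at probe set A with a 95% interval of 1.44 to 2.99. This was number 2 by p among 13703 probe sets and did not pass the threshold (limma adjusted p = 0.0715). At probe set B the interaction was 3.30 ± 0.72 (limma adjusted p = 0.380). Of all probe sets, 0.00730% passed in this comparison, namely a probe set of Osbp2 (3.53 ± 0.50, limma adjusted p = 0.0487), named after its value was seen. Under the 24 alternatives run for the interaction neither Ikzf2 probe set passed, with the smallest adjusted p at 0.0515 and 0.0787.

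The 4 groups thus stood in the order TCR single-positive, TCR double-positive, TCR:HEL double-positive and TCR:HEL single-positive by mean signal of probe set A. Neither TCR single-positive and TCR double-positive cells nor the double-positive groups differed past the threshold, and TCR:HEL single-positive stood above TCR:HEL double-positive cells. At probe set B the means of the 3 lower groups ran from 324 to 513 with overlapping arrays.

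The 2 Ikzf2 probe sets had differences of the same sign in all 5 comparisons, with larger differences at probe set B wherever both were called. The log2 ratio of B to A within an array was -2.51, -2.71 and -0.99 in TCR single-positive arrays and -1.29, -0.69 and 0.01 in TCR:HEL single-positive arrays. It was -2.57, -3.41 and -2.07 in TCR double-positive arrays and -2.11, -3.04 and -1.92 in TCR:HEL double-positive arrays. All 3 TCR:HEL single-positive ratios lay above the TCR:HEL double-positive ones, while the single-positive groups of the 2 mice overlapped at 1 array. The mean ratio differed by 1.41 between TCR:HEL and TCR single-positive arrays (exact permutation test, two-sided, p = 0.2, 0.4 after adjustment over 4 comparisons) and by 1.70 between the stages in TCR:HEL (p = 0.1, adjusted 0.4, exact permutation test). With 3 arrays against 3 this test cannot go below 0.1.

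**Figure D2:**
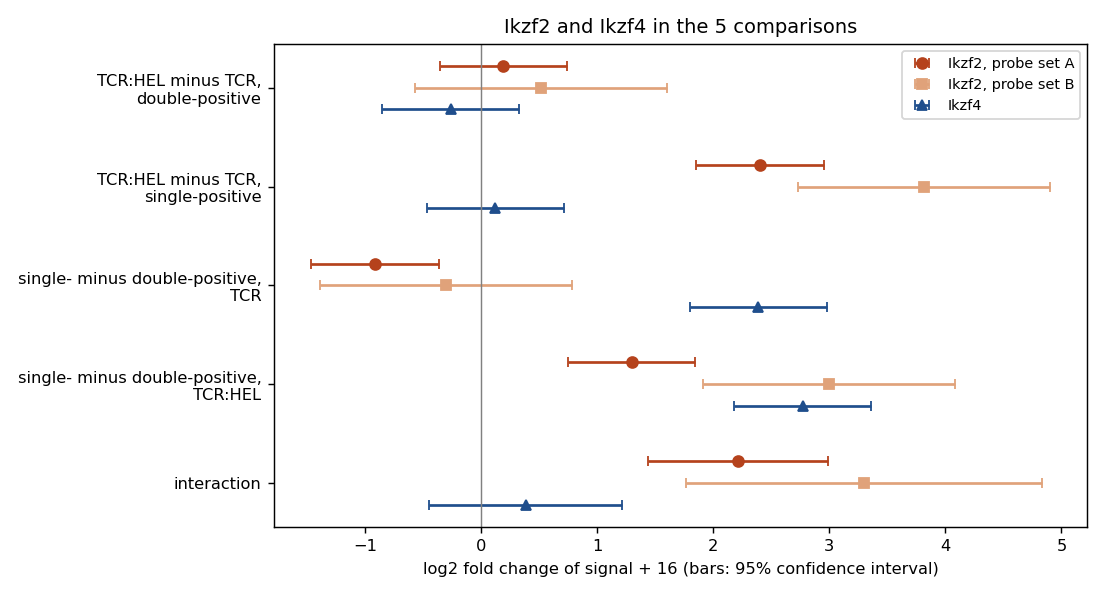
Differences of log2(signal + 16) for the 3 probe sets in the 5 comparisons, with points at the estimate and bars for the 95% confidence interval. The intervals of both Ikzf2 probe sets lie above 0 for the antigen comparison in single-positive cells (2.40 and 3.82), and those of Ikzf4 lie above 0 for both stage comparisons (2.39 and 2.77).

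Ikzf4 was called between stages in both kinds of mouse and was not called between the mice at either stage. Its probe set read 953, 555 and 603 in TCR single-positive cells and 94.6, 109 and 157 in TCR double-positive cells, with means of 704 ± 217 (SD, n = 3) and 120 ± 32.7. In TCR:HEL mice it read 696, 859 and 694 in single-positive cells and 88.4, 109 and 90.6 in double-positive cells, with means of 749 ± 94.4 and 96.0 ± 11.2. No single-positive array of either mouse overlapped with any double-positive array.

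Ikzf4 was higher in single-positive than in double-positive cells by 2.39 ± 0.28 in TCR (5.23-fold, 1.80 to 2.98, limma adjusted p = 0.000126) and by 2.77 ± 0.28 in TCR:HEL (6.83-fold, 2.18 to 3.36, limma adjusted p = 0.000103). It was number 24 by size among increases in both comparisons. Within hybridisation period 2, with 1 TCR single-positive array and 3 double-positive arrays, the difference was 2.09, and within period 3, with 2 TCR:HEL single-positive arrays and 1 double-positive array, it was 2.89. Without the 3 arrays of low Gapdh ratio the differences were 2.01 and 2.82, and both calls were kept under all 25 alternatives.

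The antigen difference of Ikzf4 was 0.12 ± 0.28 in single-positive cells with a 95% interval of -0.47 to 0.71 (limma adjusted p = 0.964). In double-positive cells it was -0.26 ± 0.28 with an interval of -0.85 to 0.33. The interval in single-positive cells excludes a change as large as the 1.86 that bounds the Ikzf2 probe set A from below. Its sign turned, to -0.02, without TCR single-positive replicate 2. The interaction was 0.38 ± 0.39 (limma adjusted p = 0.998). In order of mean signal the groups were TCR:HEL double-positive, TCR double-positive, TCR single-positive and TCR:HEL single-positive, with a difference past the threshold between stages and none within a stage.

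The log2 ratio of Ikzf4 to Ikzf2, taken within each array from the Ikzf4 probe set and Ikzf2 probe set A, was compared in the same way. Between TCR:HEL and TCR single-positive arrays the ratio differed by -2.28, and between TCR:HEL and TCR double-positive arrays by -0.46. Between single-positive and double-positive arrays it differed by 3.30 in TCR and 1.47 in TCR:HEL. In 3 of the 4 comparisons the groups did not overlap and the exact permutation p was 0.1, the smallest that 20 arrangements allow, or 0.133 after adjustment over the 4 comparisons. In double-positive cells between the mice the exact permutation p was 0.4.

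Pairs of arrays hybridised on the same day were read 1 against 1, with no test. TCR:HEL minus TCR single-positive replicate 1, the same pair of low Gapdh ratio as in period 1 above, was 2.97 and 4.19 at the 2 Ikzf2 probe sets and -0.45 at Ikzf4. For the replicate 3 arrays these values were 2.25, 3.25 and 0.20. For double-positive replicate 2 they were 0.07, 0.44 and -0.01. TCR:HEL double-positive replicate 3 against TCR:HEL single-positive replicate 2 was lower by all 3 probe sets, at -1.42, -2.64 and -3.04. Ikzf2 was thus higher in TCR:HEL in both same-day single-positive pairs, and Ikzf4 showed no common sign in them.

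The tissue samples were bulk sorted cells, in which fewer cells of a type and less RNA per cell cannot be told apart. Markers of other cells were therefore read beside the Ikzf2 and Ikzf4 results, as summed signals over the listed genes. The regulatory T cell markers on the array, Gpr83, Nrp1 and Capg, were 3 of 11 listed, and their sum in single-positive arrays was 955 to 1848 with TCR and 1031 to 1214 with TCR:HEL, and in double-positive arrays 700 to 1060 and 908 to 981. None of the 3 was called between TCR:HEL and TCR single-positive cells, and their median difference was -0.17.

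The double-positive markers Cd8a and Arpp21, 2 of 9 listed, summed in single-positive arrays to 566 to 734 with TCR and 924 to 1632 with TCR:HEL, and in double-positive arrays to 6888 to 8190 and 5388 to 6455. B cell markers, 4 of 11, summed in single-positive arrays to 351 to 482 with TCR and 489 to 599 with TCR:HEL, and in double-positive arrays to 436 to 547 and 712 to 1016. Markers of thymic epithelium and stroma, 5 of 12, summed in single-positive arrays to 2125 to 3828 with TCR and 1163 to 1680 with TCR:HEL, and in double-positive arrays to 599 to 2168 and 1261 to 3066. Those of CD8 single-positive cells (4 of 8), of dendritic cells and macrophages (3 of 15) and of NK and related cells (1 of 11) overlapped between the single-positive groups. Single-positive means with TCR and TCR:HEL were 651 and 1118 for Cd8a, 2749 and 1213 for Epcam, and 70.6 and 179 for Fcmr. Of the other B cell markers, Bank1 was 144 and 133, Ebf1 58.3 and 64.9, and Pax5 137 and 171. Cd8a and Epcam thus made up most of their sums, and the sums do not stand for whole cell types. The double-positive, B cell and stroma sums moved with the mouse as Ikzf2 did or against it, and their part in the Ikzf2 result was not tested.

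The other Ikaros family genes gave no call in any of the 5 comparisons. Ikzf1, which encodes Ikaros, had signals between 4376 and 9566, and its difference was -0.35 ± 0.26 between TCR:HEL and TCR single-positive cells (limma adjusted p = 0.846), -0.34 ± 0.26 between stages in TCR and -0.37 ± 0.26 between stages in TCR:HEL. Ikzf3, which encodes Aiolos, read 785, 841 and 959 in TCR single-positive arrays and 1592, 1591 and 1264 in TCR:HEL single-positive arrays at the brighter of its probe sets. These 3 TCR:HEL arrays stood above the other 9, yet the difference of 0.77 ± 0.23 did not pass (limma adjusted p = 0.334). The second tested Ikzf3 probe set differed by 0.36 ± 0.29, and a further one stood above its array's median on 2 of 12 arrays and was not tested. Ikzf5, which encodes Pegasus, differed between stages in TCR by -0.85 ± 0.42 and -1.10 ± 0.43 at its 2 probe sets (limma adjusted p = 0.398 and 0.224).

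With 1 probe set per gene, 1 of 5 family genes was called higher between TCR:HEL and TCR single-positive cells, 1 between stages in TCR and 2 between stages in TCR:HEL, and these were Ikzf2, Ikzf4 and both. Of all probe sets, 0.146%, 1.12% and 0.876% were called higher in these comparisons. The median difference over the 5 genes was 0.44, -0.34 and 0.64 in the same order, against medians of 0.00, -0.01 and -0.02 over all genes tested. No family gene was called lower. Ikzf2 and Ikzf4 were chosen with earlier results of these data known, so these counts partly describe the choice.

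**Figure D3:**
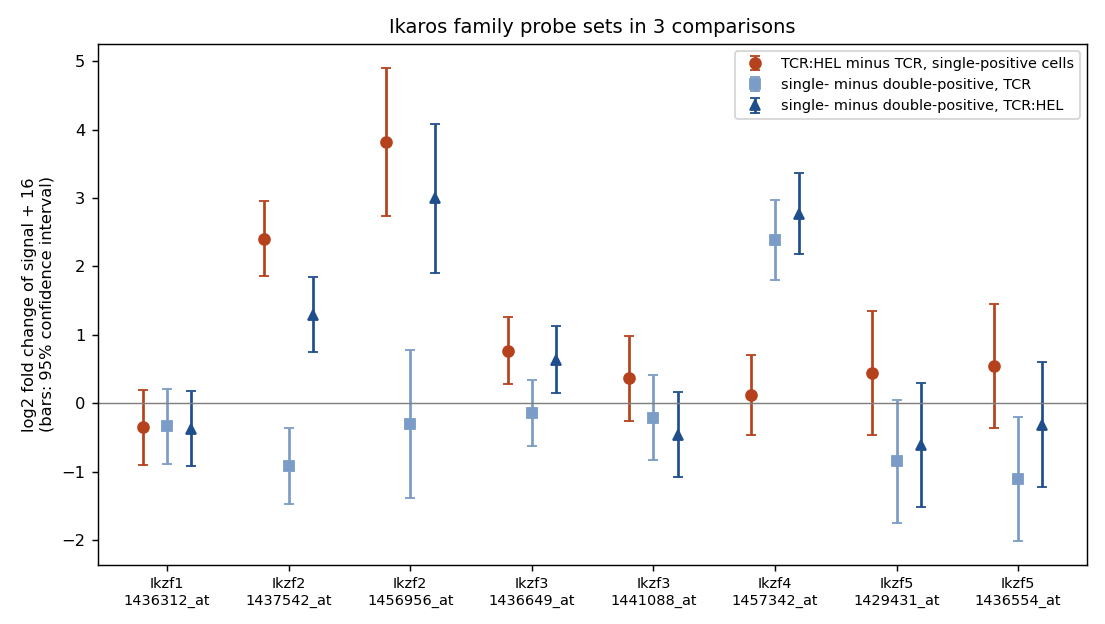
Differences of log2(signal + 16) for the 8 tested Ikaros family probe sets in 3 comparisons, with points at the estimate and bars for the 95% confidence interval. The Ikzf2 probe sets stand highest in the antigen comparison at 2.40 and 3.82, and Ikzf4 stands highest in the stage comparison in TCR at 2.39.

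Genes for the complexes that Ikaros family proteins recruit, and for the ligase that degrades some of them with drugs, were read from a list of 21 genes, of which 10 were on the array and 9 were tested. None was called in the antigen comparisons, in the stage comparison in TCR:HEL or in the interaction. Few of all probe sets were called there either. The shares were 0.146% higher between the single-positive groups, 0 between the double-positive groups and 0.00730% in the interaction. In the TCR:HEL stage comparison they were 0.876% higher and 1.10% lower. With 9 genes, the absence of calls is therefore no result about them. Chd3, an ATPase of the nucleosome remodelling and deacetylase complex, was called higher in single-positive than in double-positive cells of TCR mice (1.16 ± 0.30, limma adjusted p = 0.0486). Of all probe sets, 1.12% were called higher and 2.42% lower in that comparison. Its signals were 4437, 4891 and 5880 against 2488, 1493 and 3052. The call held in 7 of 25 alternatives, with adjusted p up to 0.215. The list's median difference was -0.17 between TCR:HEL and TCR single-positive cells, -0.12 between stages in TCR and -0.28 between stages in TCR:HEL. Over all genes tested the medians were 0.00, -0.01 and -0.02 in the same order.

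Of 31 genes known from regulatory T cells, Ikzf2 and Ikzf4 among them, 15 were on the array and 14 were tested. Between TCR:HEL and TCR single-positive cells 3 were called higher and none lower, against 0.146% of all probe sets called higher, with a median over the list of 0.19 against 0.00 over all genes tested. Beside Ikzf2 these were Niban1 (2.51 ± 0.29, limma adjusted p = 0.000941) and Arhgap20 (2.16 ± 0.35, limma adjusted p = 0.0151). Niban1 in single-positive cells read 225, 179 and 202 on the TCR arrays and 1269, 1283 and 1110 on the TCR:HEL arrays, and from 96.5 to 218 in double-positive arrays. Arhgap20 lost its call in 6 of 25 alternatives, with adjusted p up to 0.209. In double-positive cells none of the 14 was called. The list was chosen with earlier results of these data known, so its counts here and between stages describe the listed genes alone.

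Between stages in TCR, 4 of the 14 were called higher and 1 lower, against 1.12% and 2.42% of all probe sets, with a list median of 0.42 against -0.01 over all genes tested. Beside Ikzf4 the higher ones were Icos, a co-stimulatory receptor of T cells (2.31 ± 0.27), Gpr83, a G protein-coupled receptor (2.56 ± 0.35), and Arhgap20 (1.53 ± 0.35, called in 19 of 25 alternatives). Nrp1, the neuropilin receptor found on thymus-derived regulatory T cells, was lower (-1.46 ± 0.30, called in 21 of 25 alternatives). Icos read 10852, 8272 and 6434 in TCR single-positive arrays and 2155, 1344 and 1604 in TCR double-positive arrays. Gpr83 read 1353, 1409 and 501 against 144, 145 and 176. Over both kinds of mouse Arhgap20 read 76.6 to 658 in single-positive and 24.0 to 54.5 in double-positive arrays. It stood above its array's median on the single-positive arrays only and entered the test through them, so its stage calls in both mice lend no further support.

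Between stages in TCR:HEL, 6 of the 14 were called higher and 1 lower, against 0.876% and 1.10% of all probe sets, with a list median of 0.66 against -0.02 over all genes tested. Ikzf2 and Ikzf4 were among the 6, with Arhgap20 (3.59 ± 0.35), Niban1 (2.89 ± 0.29), Icos (2.74 ± 0.27) and Gpr83 (2.00 ± 0.35). Nrp1 was again the lower one (-1.62 ± 0.30, called in 24 of 25 alternatives), with signals of 168, 216 and 224 against 622, 584 and 756. The stage comparisons do not share samples with each other, whereas each shares 3 arrays with the antigen comparison.

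Genes induced by T cell receptor signals, 11 tested of 32 listed, were also chosen with earlier results known, so their counts describe the listed genes alone. They had a median difference of 1.15 between TCR:HEL and TCR single-positive cells and -0.17 between the double-positive groups. Over all genes tested these medians were 0.00 and -0.01. Of these 11, only Dusp4, a phosphatase of MAP kinases, was called in single-positive cells (2.82 ± 0.29, limma adjusted p = 0.000565), against 0.146% of all probe sets called higher. Dusp4 signal in single-positive cells averaged 204 ± 32.8 over the TCR arrays and 1536 ± 254 over the TCR:HEL arrays, and in double-positive cells 590 ± 259 and 816 ± 76.9. Nr4a3, an orphan nuclear receptor, differed by 2.10 ± 0.44 without passing (limma adjusted p = 0.0708). Between stages in TCR 3 of the 11 were called higher and 2 lower, against 1.12% and 2.42% of all probe sets. The list median was 0.68 against -0.01 over all genes tested. Between stages in TCR:HEL 6 were called higher and none lower, against 0.876% and 1.10%. The list median was 1.62 against -0.02 over all genes tested. Fosl2, among the 6 (3.87 ± 0.50), stood above its array's median on single-positive arrays only. It entered the test through them, so its stage call lends no further support. Nr4a3 was higher in single-positive cells by 4.42 ± 0.44 in TCR and 5.88 ± 0.44 in TCR:HEL, and Egr3, a zinc finger factor, by 2.30 ± 0.40 and 2.86 ± 0.40. The double-positive signals of Nr4a3 ran from 20.7 to 142 and lay below the array's median on most of those arrays.

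The genes most like Ikzf2 and Ikzf4 were found by the root mean square difference of log2(signal + 16) over the 12 arrays, after each probe set was centred on its own mean. This measure takes account of the size of a change as well as its course, and all values come from the same 12 arrays. For Ikzf2 at probe set A the nearest named genes were Ralgapa1, a subunit of a Ral GTPase activating complex (0.492), Trps1, a GATA-type zinc finger repressor (0.496), Tmem167 (0.503), Dusp4 (0.510) and Nrip1, a co-repressor of nuclear receptors (0.519). The median over 13702 other probe sets was 0.996. The second Ikzf2 probe set lay at 0.975, number 6015 by nearness, and Ikzf4 at 1.51. A probe set without any change would lie at 0.886, nearer than the second Ikzf2 probe set.

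Trps1 read 40.3, 58.2 and 203 in TCR single-positive arrays and 309, 312 and 344 in TCR:HEL single-positive arrays, and Ralgapa1 27.7, 30.5 and 31.7 against 94.5, 67.9 and 90.0. All 5 genes, Dusp4 among them, were picked for their likeness to Ikzf2 on these arrays. Ralgapa1 also stood above its array's median only on the 3 TCR:HEL single-positive arrays. The values and calls of the 5 genes thus describe the choice and support nothing further. Of the 5 nearest genes only Dusp4 was called in the antigen comparison. The differences of the other 4 ran from 1.11 for Ralgapa1 to 1.80 for Trps1 (limma adjusted p = 0.454 and 0.0828).

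For Ikzf4 the nearest named genes were Mapkapk3, a kinase activated by p38 MAP kinase (0.324), Nol4l (0.328), Icos (0.364), Egr3 (0.369) and Bach2, a transcriptional repressor of lymphocytes (0.428), against a median of 1.37. All 5 were called higher in single-positive cells in both kinds of mouse, with differences from 2.21 (Mapkapk3) to 3.21 (Bach2) in TCR and from 2.54 (Mapkapk3) to 2.86 (Egr3) in TCR:HEL. Mapkapk3 in single-positive cells read 3723, 2694 and 1712 on the TCR arrays and 3802, 3602 and 2139 on the TCR:HEL arrays, and from 440 to 604 in double-positive arrays. Bach2 read from 2013 to 4805 in single-positive and from 218 to 562 in double-positive arrays. All 5 genes were picked for their likeness to Ikzf4 on these arrays, so their stage calls describe the choice and support nothing further. Nol4l stood above its array's median only on single-positive arrays, at 102 to 276 against 8.78 to 43.9 in double-positive arrays. None of the 5 was called between TCR:HEL and TCR in either stage. The TCR stage calls of Nol4l and Egr3 were lost with hybridisation period (30-day gap) as a block (adjusted p = 0.0579 and 0.0920 with limma), and that of Egr3 also without the 3 arrays of low Gapdh ratio (0.0624).

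**Figure D4:**
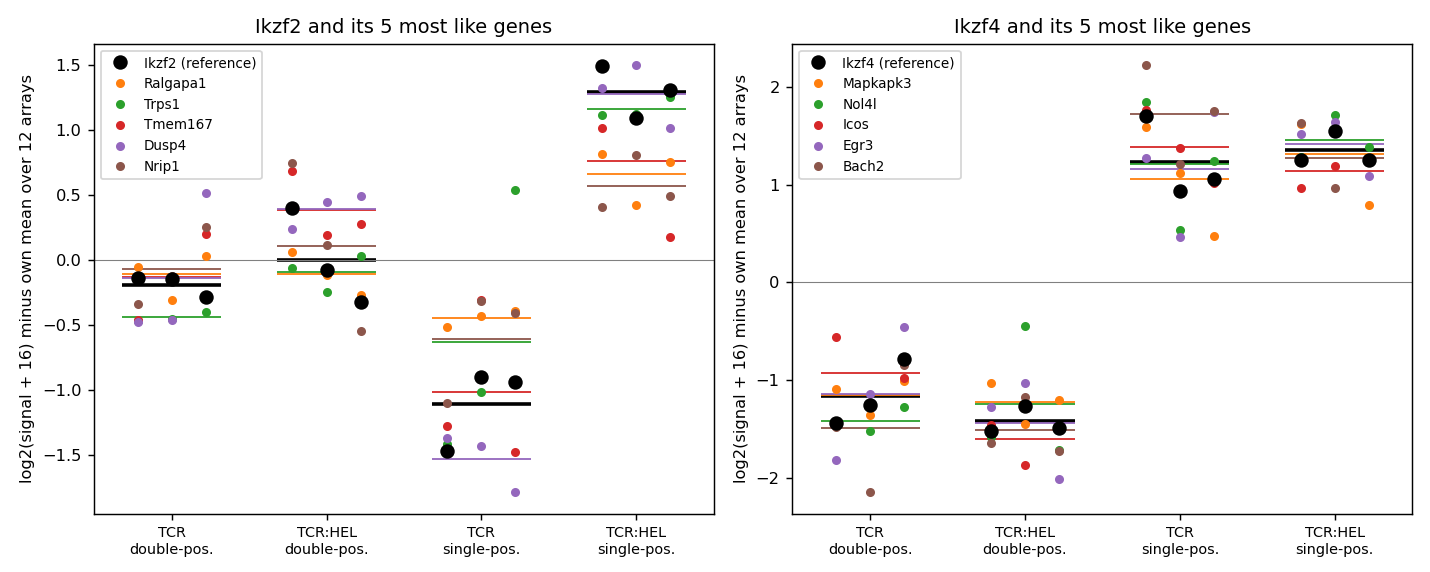
Values of log2(signal + 16) minus each probe set's own mean over 12 arrays, for Ikzf2 (probe set A) and Ikzf4 in black and the 5 genes nearest to each in colour, with 1 point per array and bars at group means. The group means of the genes near Ikzf2 are highest in TCR:HEL single-positive cells, while single arrays of Nrip1 and Tmem167 overlap with the TCR:HEL double-positive arrays, and the genes near Ikzf4 are higher in all single-positive than in all double-positive arrays.

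The promoters of Mapkapk3 and Bach2 are shown because these genes followed the stage pattern of Ikzf4 across all 12 arrays. Each sequence runs from 250 bases before to 50 bases after an annotated start in RefSeq (GRCm38.p6), read along the gene's strand. Capitals mark each match, on either strand, to 1 of 4 motifs, which were TGGGAA (the core of Ikaros family sites), GGAAA (the core of NFAT sites), TGANTCA (AP-1) and AAGGTCA (the site of Nr4a factors), where the first and second can overlap.
Mapkapk3, chr9:107289828-107290127, minus strand: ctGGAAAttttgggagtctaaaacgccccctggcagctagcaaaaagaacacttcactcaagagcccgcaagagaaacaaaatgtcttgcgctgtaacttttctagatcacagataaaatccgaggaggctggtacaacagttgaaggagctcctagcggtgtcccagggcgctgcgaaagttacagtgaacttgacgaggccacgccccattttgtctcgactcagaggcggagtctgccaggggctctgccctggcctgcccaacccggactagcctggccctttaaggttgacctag
Mapkapk3, chr9:107289347-107289646, minus strand: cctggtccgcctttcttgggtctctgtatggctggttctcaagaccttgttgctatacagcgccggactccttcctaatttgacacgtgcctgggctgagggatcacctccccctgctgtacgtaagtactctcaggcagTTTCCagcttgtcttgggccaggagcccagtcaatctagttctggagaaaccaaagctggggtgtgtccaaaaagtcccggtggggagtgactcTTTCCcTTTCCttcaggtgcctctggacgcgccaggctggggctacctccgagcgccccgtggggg
Bach2, chr4:32417185-32417484, plus strand: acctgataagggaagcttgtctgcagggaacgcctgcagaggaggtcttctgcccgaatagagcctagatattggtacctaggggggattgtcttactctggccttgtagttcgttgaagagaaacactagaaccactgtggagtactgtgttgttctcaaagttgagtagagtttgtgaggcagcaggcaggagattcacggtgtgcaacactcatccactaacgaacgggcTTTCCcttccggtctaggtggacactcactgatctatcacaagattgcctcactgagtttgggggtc

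The NFAT core was found 1 and 3 times in the Mapkapk3 promoters and 1 time in that of Bach2, and these were the only matches. Both Nol4l promoters held 0 matches to the 4 motifs, and no promoter of Icos or Egr3 was available. Of 32851 promoters of this length, 61.3% held the NFAT core, 25.6% the Ikaros core, 7.81% the AP-1 motif and 4.72% the Nr4a motif, so a match to the NFAT core is common and is given as a description of the letters alone.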

How the data were processed

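RNA of sorted thymocytes was measured on 12 one-colour arrays, 3 per group, which limits the precision of every comparison. The deposited table holds MAS5 signals, per the submitters' processing notes, that is linear intensity values, all scaled to a 2% trimmed mean of 150. Groups came from the sample titles. The p-values measure the spread between replicates, which the series' design text calls biological. Without the 64 control probe sets, those that exceeded the median of their array on 3 or more arrays were kept, 13703 in all, of which the platform annotation gave 9319 a single symbol, 149 several and 4235 none. Symbols were updated through RefSeq (GRCm38.p6).

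Signals were taken as log2(signal + 16), which understates changes of low signals. Limma 3.58.1 in R 4.3.3 fitted 4 group means to all 12 arrays with trended moderation (8 residual and 7.01 prior degrees of freedom) and two-sided tests, adjusted by Benjamini-Hochberg within each comparison. The fit was tested on simulated data. The members of the gene lists, and Ikzf2 and Ikzf4 themselves, were chosen with earlier results of these data known. List genes were represented by the probe set of highest mean. Genes were named where they were called members of the Ikaros lists, up to 4 called members of smallest p of any other list, markers, the landmarks Dusp4, Nr4a3 and Cd8a, or the 5 nearest to Ikzf2 and to Ikzf4. Ratios were compared by exact permutation.

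Whether replicate numbers pair arrays was checked by the correlation of their deviations from group means. For the single-positive groups r was 0.159 to 0.204 for all 3 numbers, so these were treated as paired in an alternative, which called 47 probe sets in place of 30. Hybridisation periods are runs of days, from the arrays' record files, parted by gaps of over 35 days, or 30 days as an alternative. Alternatives also covered pseudocount, filter, normalization and left-out arrays.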

Additional observations from a re-analysis of the deposited data

Results flagged for a closer look

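The stage change of Ikzf2 at probe set A in TCR:HEL mice minus that in TCR mice was 2.21. It stood out because single-positive arrays lay above double-positive arrays in TCR:HEL mice and below them in TCR mice, with no overlap in either. The difference itself was tested as the interaction and missed the threshold (limma adjusted p = 0.0715).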

How the results depend on the processing

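Ikzf2 at probe set A was called between TCR:HEL and TCR single-positive cells in all 25 alternatives (2.12 to 2.53). At probe set B it was called in 24 (3.42 to 4.44), the exception being 3.63 (adjusted p = 0.0726) without the 3 arrays of lowest Gapdh ratio. Ikzf4 was called between stages in all 25 for both mice (2.01 to 2.57 and 2.34 to 2.95). Without 1 replicate at a time, the TCR:HEL stage difference of probe set A ran from 1.13 to 1.498, and it was 1.20 without the 3 arrays, where its call was lost. The same leave-one-out range was -0.92 to 0.10 for probe set B between stages in TCR (0.18 without the 3 arrays), -0.0087 to 0.356 for probe set A between the double-positive groups, and -0.0242 to 0.357 for Ikzf4 between the single-positive groups.

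Counts of called probe sets moved more. In the single-positive antigen comparison they were 47 with the replicate block, 8 without the 3 arrays and 13 to 35 with 1 replicate left out, against 30. Between stages in TCR they were 303 with only the groups compared, 313 and 240 with hybridisation period as a block (35-day and 30-day gap), 320 without the 3 arrays and 293 to 467 with 1 replicate left out, against 484. Between stages in TCR:HEL they were 118 to 324 with 1 replicate left out, against 271. For the interaction 1 became 4 at a pseudocount of 64 and 0 in most others, including the replicate block. The block changed no call of Ikzf2 or Ikzf4. Outside the single-positive groups, same-numbered arrays correlated at r from -0.133 to 0.291, yet the block tied these arrays by number as well. The cause of these shifts was not tested. Fits that leave arrays out also hold fewer arrays.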
